A study of Mus musculus with 4 samples.

Results

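Capillary blood endothelial cells were picked from droplet libraries of mouse popliteal vessels as barcodes with RNA of general endothelial genes and of capillary genes and with none of venular or lymphatic genes. A member had at least 1 unique molecular identifier (UMI, a tag that marks 1 captured RNA molecule) in at least 2 of the 5 genes Flt1, Ptprb, Emcn, Kdr and Esam, and in at least 2 of the 4 genes Rbp7, Gpihbp1, Cd300lg and Cd36. It had 0 UMIs of Ackr1, Selp, Prox1 and Mmrn1. The rule found 280 members among 3435 kept barcodes. They were 146 of 1919 barcodes (7.61%, 95% Clopper-Pearson interval 6.46 to 8.89%) in the first library, 50 of 519 (9.63%, 7.24 to 12.5%) in the second and 84 of 997 (8.43%, 6.78 to 10.3%) in the third, so the intervals of the shares overlapped. All intervals here cover counting error only.

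The first and second libraries, PLV 1 and PLV 2, were popliteal lymphatic vessels, each from a separate set of 2 mice, digested for 30 minutes with collagenase I, Dispase II, DNase and Liberase. The third, the mixed library, held popliteal lymphatic vessels (PLV) and blood vessels (BV) of 1 set of 2 mice, digested for 60 minutes with collagenase I and Dispase II alone and stained with a hashtag antibody per vessel. Every mouse was an adult of the same cross, Wt1 GFP-Cre with the Ai9 tdTomato reporter, in which Cre at the Wt1 locus switches on tdTomato in cells with present or past Wt1 activity. Every mouse was anaesthetised with K/X and received 4% Evans blue in the footpad, and no untreated group or reporter-negative strain is among these samples. The study set the muscle of lymphatic vessels beside that of the vein, and the endothelial cells came with the dissected vessels and the tissue on them.

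Capillaries are the exchange vessels between arterioles and venules. In muscle and fat their endothelial cells take up fatty acids: GPIHBP1 carries lipoprotein lipase to the luminal surface, CD36 takes fatty acids into the cell, and the fatty acid binding proteins FABP4 and FABP5 carry them inside it. CD300LG is a surface glycoprotein of capillary endothelium, RBP7 binds retinol, and ACKR1 and SELP mark the venules through which leukocytes leave the blood.

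The label was checked with Rgcc, a regulator of the cell cycle and a capillary marker that the rule did not use. Its level in the members was 455.8 CPM (UMIs of a gene scaled to a common total of UMIs) in PLV 1, 492.9 in PLV 2 and 600.02 in the mixed library. Endothelial cells with Ackr1 or Selp had 34.4, 119.3 and 25.5 CPM, and lymphatic endothelial cells had 6.67, 2.85 and 0. The members were above both kinds of endothelial cell in every library. With each member thinned to 1500 UMIs, 46.9% of 128, 50% of 42 and 45.6% of 68 members had a Rgcc UMI, against 8.08%, 4.49% and 3.46% of non-endothelial cells at the same depth. All 5 blood endothelial markers (Pecam1, Cdh5, Cldn5, Egfl7 and Tie1) were present in the members of every library.

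Markers of mural cells, which wrap small vessels, were also present in the members. The 5 pericyte markers, led by Rgs5, a pericyte regulator of G protein signalling, summed to 2321 CPM in PLV 1, 717 in PLV 2 and 1375 in the mixed library, against 547, 546 and 437 CPM in all other kept cells. At least 2 UMIs in at least 2 of these markers were found in 33 of 146, 5 of 50 and 28 of 84 members. Smooth muscle markers summed to 1666, 323 and 978 CPM and fibroblast markers to 752, 184 and 632 CPM, both below the other kept cells. Erythroid markers summed to 2466, 703 and 187 CPM, against 1436, 1006 and 121.3 CPM in the other kept cells, so they were higher in the members of PLV 1 and the mixed library. Adipocyte markers summed to 109.7, 84.9 and 48.5 CPM in the members and to 4.50, 4.60 and 2.00 CPM in the other kept cells, so they were higher in the members than in these cells in every library. Near-empty droplets of the mixed library had 319.8 CPM of them, above its members, and 63073 CPM of the erythroid markers. The defining adipocyte genes Adipoq, with 5, 4 and 1 UMIs, and Plin1, with 3, 1 and 0 UMIs, were near 0, and 1, 1 and 0 members held at least 2 UMIs in at least 2 of the 5 markers. Most of the sum was Car3, a muscle and fat carbonic anhydrase, with 86, 26 and 38 UMIs. The lymphatic list had 5, 5 and 4 of its 6 markers at 0, its sum was 25.5 to 70.8 CPM, and the lymphocyte list had 4 or 5 of its 5 markers at 0. Zeros of the lymphatic genes Prox1 and Mmrn1 were set by the rule and are no check of the label. Each comparison of cells was also run without barcodes that held markers of another class, meaning smooth muscle, pericyte, fibroblast, Schwann cell, macrophage, lymphocyte or keratinocyte, with adipocyte and erythroid markers not among them.

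The libraries differed in ways that touch every comparison between them. The members had a median of 4434.5, 7006.5 and 6943 UMIs and summed to 947780, 424013 and 824968 UMIs. Xist, the female X-inactivation RNA, had 354 and 132 UMIs in the PLV members and 0 in the mixed members, and the Y-linked gene Ddx3y had 0, 0 and 74. Gm42418, a gene model that overlaps ribosomal RNA sequence, was at 7100 CPM in PLV 1 and at 58371 and 73417 CPM in PLV 2 and the mixed library. No kept barcode was shared between libraries. The median share of the first hashtag was 80.2% in mixed members and 79.7% in other kept cells of that library, so the hashtags did not tell which vessel a member came from.

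The genes of the rule are given as a description, because they chose the members. Cd36 was at 3057, 4181 and 2723 CPM and had a UMI in 144 of 146, 49 of 50 and 83 of 84 members. Gpihbp1 was at 905.3, 875 and 992.8 CPM and Cd300lg at 684.8, 929.2 and 754 CPM. Rbp7 was at 415.7, 365.6 and 618.2 CPM and was found in 77 of 146, 27 of 50 and 61 of 84 members. All 4 capillary genes were detected together in 60, 22 and 49 members, 3 of them in 57, 22 and 22, and only 2 in 29, 6 and 13. Members with 4 of them were deeper, with medians of 7360, 12278 and 10797 UMIs, than those with 2, with medians of 3295, 1354 and 1300. Barcodes just outside the threshold, with 1 capillary gene and otherwise the same conditions, numbered 49, 10 and 38. They had 3121, 1601 and 2153 CPM of Fabp4, against 10358, 9408 and 8301 CPM in members with exactly 2 capillary genes.

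**Figure D1:**
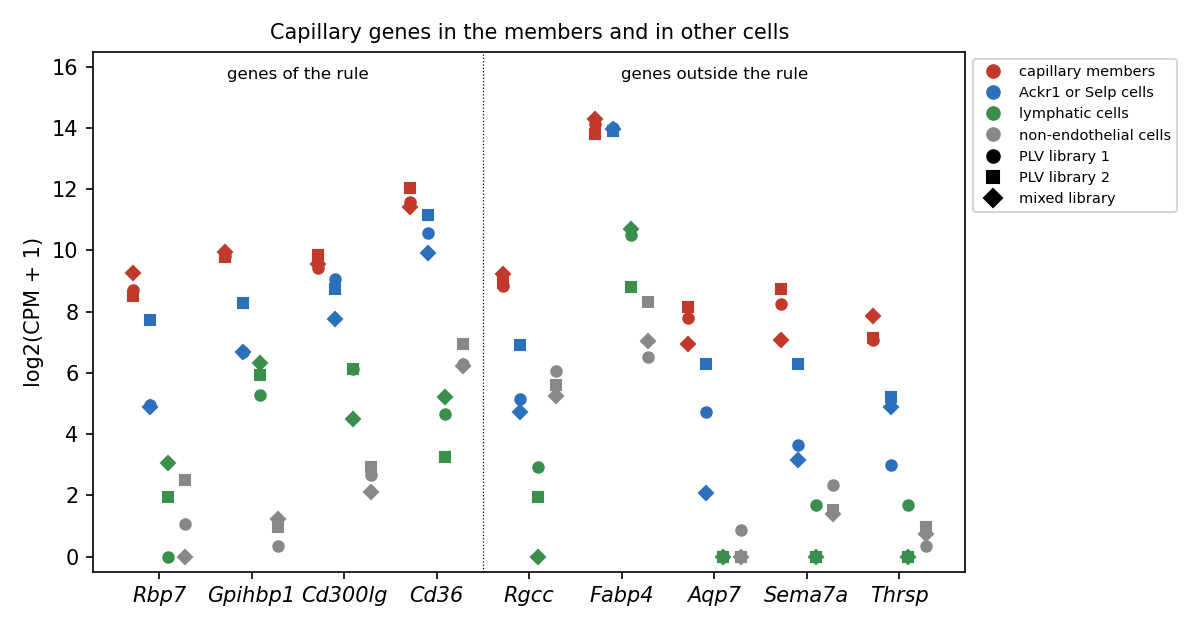
Levels on the log2(CPM + 1) scale (vertical axis) of 4 genes of the rule and 5 genes outside it (horizontal axis), with 1 point for each library and kind of cell. For Rgcc the 3 member points lie above all others, while for Fabp4 the members and the cells with Ackr1 or Selp overlap.

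Apart from the genes of the rule, the genes with the highest ratio of members to all other kept cells (5 CPM added) were led by Aqp7, a channel for water and glycerol, Sema7a, a membrane semaphorin, and Thrsp, a lipogenic nuclear protein. Aqp7 was at 219.5, 285.4 and 121.2 CPM in the members and at 1.85, 6.24 and 0.715 CPM in the other cells. Sema7a was at 302.8, 426.9 and 134.6 CPM, against 8.2, 7.56 and 1.86 CPM. Thrsp was at 134, 139.2 and 232.7 CPM, against 1.04, 3.62 and 4.01 CPM. Cxcl12, a chemokine that holds leukocytes and progenitors, was at 3025, 5146 and 6804 CPM in the members and at 326, 305 and 296 CPM in the other cells. These ratios carry no test, since every gene of the same cells belongs to the contrast that the rule drew.

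Single members varied around these sums. Fabp4 ranged from 0 to 65078 CPM in PLV 1 (median 14914), from 1122 to 49204 CPM in PLV 2 (median 11892) and from 0 to 102450 CPM in the mixed library (median 15811), and it had a UMI in 145 of 146, 50 of 50 and 83 of 84 members. Aqp1, the water channel of many endothelia, was missing from more members: 96 of 146, 35 of 50 and 37 of 84 members had a UMI, and the highest member reached 11076, 12840 and 5371 CPM. Cldn5, the main tight junction claudin of endothelium, had a UMI in 85 of 146, 34 of 50 and 66 of 84 members. After thinning to 1500 UMIs, Aqp1 and Cldn5 were found together in 25 of 128, 12 of 42 and 7 of 68 members, where the product of their shares gives 28.7, 12.4 and 10.1. The arterial gene Sema3g, found in 23 of 128, 7 of 42 and 12 of 68 thinned members, shared 7, 4 and 4 of them with the venous gene Vwf, where the product gives 4.13, 1.33 and 1.41. No test was made of these counts.

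**Figure D2:**
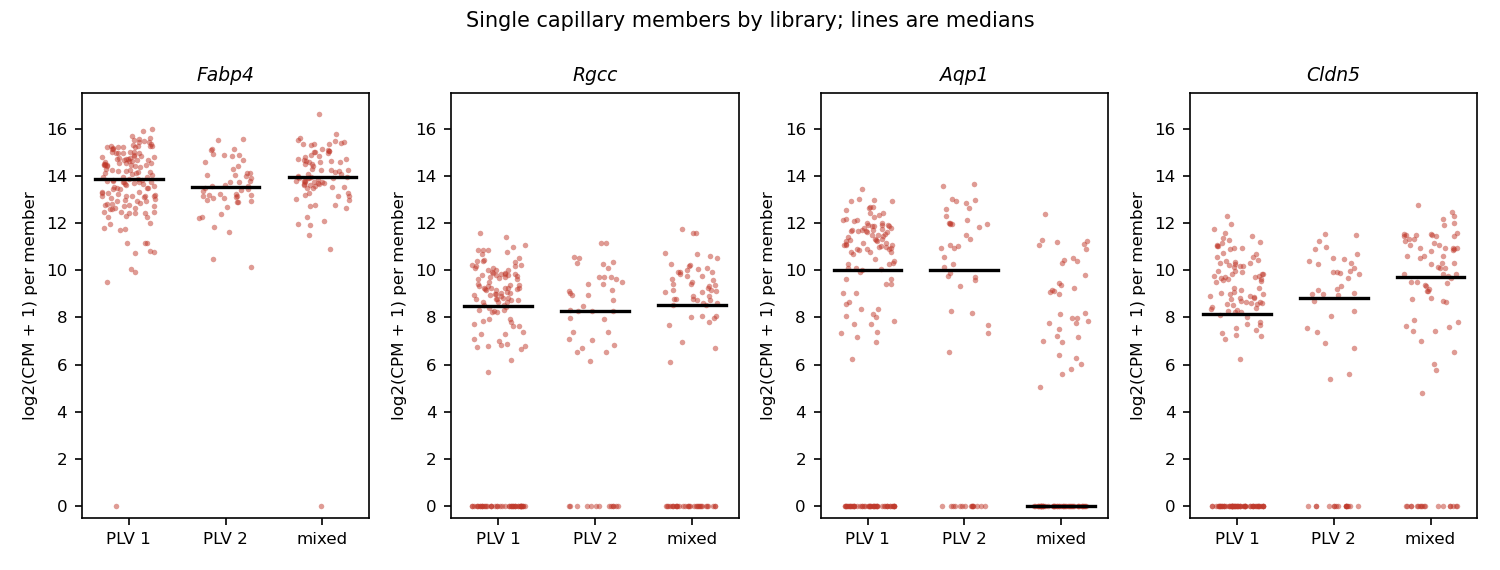
Levels of 4 genes in each capillary member on the log2(CPM + 1) scale (vertical axis) by library (horizontal axis), with 1 point for each barcode and a line at the median. Nearly every member has Fabp4, while Rgcc, Aqp1 and Cldn5 are at 0 in many, and the median of Aqp1 is at 0 in the mixed library.

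The first comparison set the members against venular endothelial cells, the blood endothelial cells that follow capillaries in the circulation, and asked which other genes separate them. The venular gate (the same endothelial genes, Ackr1 or Selp present, fewer than 2 capillary genes) held only 13, 3 and 22 barcodes with 30944, 5678 and 208964 UMIs. Summed counts per library were tested with edgeR's quasi-likelihood test, the library as a block and Benjamini-Hochberg adjustment. Of 5809 genes tested, 335 were called (5.77%), 161 higher (2.77%) and 174 lower in the members. The gates are read from the same RNA, so genes that accompany the 13 gate genes, which were kept out of the tests, had to differ. The p-values set each difference against a spread that edgeR estimates largely across all genes. They do not measure how a single gene repeats over the libraries.

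Cldn5 had 521, 246 and 784 UMIs in the members and 0 in the venular cells of every library, at least 57.8-fold higher against a floor of 3 counts over the group. Timp4, an inhibitor of matrix metalloproteinases, was in the same way at least 36.6-fold higher. Lbp, a binding protein of bacterial lipopolysaccharide, had 0 UMIs in all members and 226.2, 176.1 and 392.4 CPM in the venular cells, at least 268.4-fold lower in the members. Nt5e, the enzyme that makes extracellular adenosine, had 4, 1 and 0 UMIs in the members and 549.4, 352.2 and 229.7 CPM in the venular cells. Of the lists, lipid genes were higher in 7 of 14, matrix genes in 8 of 20 and venous genes lower in 10 of 18. Without PLV 1 these counts were 0, 1 and 0, without the mixed library 0, 3 and 2, and DESeq2 called 1 lipid gene higher, so the list counts rest on these libraries and, for lipid genes, on the tool. With DESeq2 the count of all called genes was 122. Without the mixed library it fell to 15 and without PLV 1 to 24, and with PLV 2, where the venular cells were 3 barcodes, left out it was 387.

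Because that gate was thin, the comparison was widened, after the data had been seen, to all endothelial barcodes with Ackr1 or Selp. These numbered 67, 15 and 54, and 54, 12 and 32 of them also had at least 2 of the capillary genes. They were deeper than the members, with medians of 5305, 10739 and 9990 UMIs, and a UMI of Ackr1 was found in 11.5%, 7.73% and 8.96% of non-endothelial cells. Of 7404 genes tested, 1083 were called (14.6%), 468 higher (6.32%) and 615 lower (8.31%) in the members. The count was 398 with DESeq2, 420 without the library as block, 467 without PLV 1, 710 without the mixed library and 380 with cells thinned to 1500 UMIs, which left 1786 genes to test. The 2 comparisons share the members and the venular cells, so the second is not independent of the first.

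Genes of lipid uptake and handling were mixed: of 20 listed genes 15 were tested, 5 were higher and 2 lower in the members, with a median log2 fold change of 0.61 beside -0.01 over all genes tested. With DESeq2, without PLV 1 or without the mixed library, 3 were higher and 1 lower. Lpl, lipoprotein lipase, was at 309.1, 252.4 and 253.3 CPM in the members and at 91.7, 101.4 and 59.1 CPM in the cells with Ackr1 or Selp (log2 fold change 1.61 ± 0.20 SE, adjusted p = 3.76e-06). Tcf15, a transcription factor that drives fatty acid uptake genes with Meox2, was at 216.3, 245.3 and 249.7 CPM, against 34.4, 143.2 and 43.1 CPM (1.87 ± 0.26, adjusted p = 2.17e-05). In both genes the lowest library sum of the members lay above the highest of the other cells. Non-endothelial cells held more Lpl than the members, 469.5, 477.6 and 520.1 CPM. Mgll, which splits monoglycerides, Plin2, a coat protein of lipid droplets, and Pparg, the lipid-sensing nuclear receptor, were the other genes called higher. Pparg was higher in 2 of 3 libraries: in PLV 2 it was at 42.5 CPM in the members and 65.6 CPM in the other cells. DESeq2 called neither Plin2 nor Pparg, and without PLV 1 neither Mgll nor Pparg was called. Adipocytes express several of these genes, and the adipocyte markers given above were higher in the members than in the other kept cells. Their part in these differences was not tested. With barcodes holding markers of another class left out, which does not remove adipocyte markers, Lpl was called at 3.57. Fabp4 did not pass: it was at 17756, 14431 and 20155 CPM in the members and at 16415, 15294 and 16049 CPM in the cells with Ackr1 or Selp, and the groups overlapped (-0.04 ± 0.12, adjusted p = 0.905). Against the thin venular gate, at 12313, 13737 and 12146 CPM of Fabp4, it was called higher in the members (0.81 ± 0.21, adjusted p = 0.00406, 3 of 3 libraries), but not by DESeq2 (adjusted p = 0.0665) nor with any 1 library left out. Fabp5 was lower in the members (-1.08 ± 0.17), at 288, 278.3 and 530.9 CPM against 724.8, 381.9 and 935.6 CPM.

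Among genes of exchange across the vessel wall, 5 of 15 tested were higher and 4 lower, with a median of 0.16. Car4, a membrane carbonic anhydrase of gas exchange, was at 42.2, 51.9 and 86.1 CPM in the members and at 2.29, 23.9 and 11.2 CPM in the other cells (2.52 ± 0.42, adjusted p = 0.000154). Aqp7 was higher (2.87 ± 0.31), as were the caveolar coat genes Cav1 (0.51 ± 0.13) and Cav2 (0.70 ± 0.16). Aqp1 was lower, at 1565, 1953 and 395.2 CPM in the members and 3544, 3903 and 2978 CPM in the other cells (-1.83 ± 0.24, adjusted p = 7.76e-06), and no library's sum over its members reached the lowest of these, though single members did. Plvap, which forms the diaphragms of fenestrae and caveolae, was lower as well (-0.97 ± 0.13).

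Junction genes were called in 10 of 17, 9 of them higher (4 without PLV 1), with a median of 0.45. Cldn5 was at 549.7, 580.2 and 950.3 CPM in the members and at 43.6, 107.4 and 28.7 CPM in the cells with Ackr1 or Selp (3.68 ± 0.29, adjusted p = 6.26e-09). Jam3, an adhesion molecule of tight junctions, was at 135.1, 148.6 and 98.2 CPM, against 25.2, 47.7 and 3.19 CPM (2.56 ± 0.33). The connexins Gja4 (2.62 ± 0.41) and Gja5 (5.59 ± 0.65), which form gap junctions of arterial endothelium, were also higher. Pecam1, the general endothelial adhesion molecule, was the gene called lower (-0.44 ± 0.14, adjusted p = 0.0379), in 2 of 3 libraries, since PLV 2 had 1517 CPM in the members and 1510 CPM in the other cells, and DESeq2 did not call it (adjusted p = 0.295). Without the barcodes holding markers of another class Cldn5 was called at 4.96 and Pecam1 was not (adjusted p = 0.189).

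Notch and arterial genes were called higher in 8 of 17 and lower in 1, Dll1 (lower in 2 of 3 libraries), with a median of 0.44. Notch4, the endothelial Notch receptor, was at 131.9, 115.6 and 65.5 CPM in the members and at 11.5, 35.8 and 12.8 CPM in the other cells (2.42 ± 0.31). Sox17, an arterial transcription factor, was at 259.6, 323.1 and 208.5 CPM, against 94, 125.3 and 57.5 CPM (1.41 ± 0.19). For both, the library sums of the members lay above those of the other cells. The ligand Dll4 (1.69 ± 0.24), the Notch target Hey1 (3.76 ± 0.55) and Efnb2, the ephrin of arteries (1.85 ± 0.28), were higher too. Sema3g, a semaphorin of arterial endothelium from the signalling list, was at 208.9, 129.7 and 133.3 CPM, against 4.59, 5.97 and 6.39 CPM (4.58 ± 0.33, adjusted p = 2.4e-09). Endothelial barcodes with fewer than 2 capillary genes and neither Ackr1 nor Selp had 579.5, 103.2 and 19.4 CPM of Sema3g and 211.5, 80.3 and 8.08 CPM of Gja5. Of the members with a Gja5 UMI there were 24, 7 and 7, and in PLV 2 and the mixed library 1 member held 58.8% and 40.0% of its UMIs.

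Venous and venular genes were lower in 14 of 18 tested and higher in 0, with a median of -1.96. The absence of Ackr1 and Selp in the members was set by the rule, and genes that venules share with them follow that choice. Vwf, von Willebrand factor, was at 162.5, 150.9 and 47.3 CPM in the members and at 789, 692.2 and 1124 CPM in the cells with Ackr1 or Selp (-3.12 ± 0.29). Icam1, a leukocyte adhesion receptor, was at 16.9, 33 and 15.8 CPM, against 284.4, 119.3 and 467.8 CPM (-4.08 ± 0.32). The E-selectin gene Sele (-6.44 ± 0.47) had 3 UMIs in all members, in PLV 2. Lrg1 (-2.79 ± 0.16), Il6st (-2.18 ± 0.16) and Ptgs1 (-2.92 ± 0.20) were lower in every library as well. Haemostasis genes were lower in 10 of 15 (5 of 15 without PLV 1, 6 of 16 with DESeq2) and higher in 2, Ednrb and Gucy1b1. Ednrb, an endothelin receptor, was at 273.3, 205.2 and 261.8 CPM against 9.17, 71.6 and 12.8 CPM (3.43 ± 0.35). Gucy1b1 (1.66 ± 0.38) was higher in 2 of 3 libraries, at 73.9, 23.6 and 70.3 CPM against 13.8, 29.8 and 16.0 CPM. The pericyte markers of the members, at 2321, 717 and 1375 CPM, were also lowest in PLV 2. Their part in the Gucy1b1 call was not tested.

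Basement membrane and matrix genes were higher in 13 of 20 and lower in 1, Igfbp4, with a median of 0.80, and without PLV 1 the count higher was 8. Col4a1, a chain of type IV collagen, was at 770.2, 877.3 and 1268 CPM in the members and at 183.5, 352.1 and 396 CPM in the other cells (1.54 ± 0.16, adjusted p = 3.88e-07), and Col4a2 (1.46 ± 0.16) moved with it. Mural cells make these collagens too, and Rgs5 was at 2016, 582.5 and 996.4 CPM in the members, against 697.2, 560.9 and 237.9 CPM. With barcodes holding markers of another cell class left out, 14 of 19 were higher and 1 lower, with a median of 0.98. Timp4 was at 564.5, 455.2 and 309.1 CPM in the members, against 34.4, 232.7 and 27.1 CPM (2.56 ± 0.33). Igfbp3, a binding protein of insulin-like growth factors, was at 505.4, 209.9 and 60.6 CPM, against 2.29, 59.7 and 0 CPM (4.35 ± 0.51). In the fit without those barcodes the estimates were 4.48 for Timp4 and 6.49 for Igfbp3.

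Immediate early and heat shock genes, which respond within minutes to stress, dissociation included, were lower in 15 of 20 and higher in 1, Btg2 (not called by DESeq2), with a median of -0.95. Atf3 was at 65.4, 40.1 and 42.4 CPM in the members, against 339.4, 155.1 and 531.7 CPM (-2.97 ± 0.24). Jun was at 599.3, 908 and 664.3 CPM, against 1612, 1695 and 1857 CPM (-1.45 ± 0.15). DESeq2 called 7 of 20 lower, and the counts were 10 of 20 without PLV 1 and 9 of 19 without the mixed library. Among endothelial transcription factors 7 of 19 were higher, with Id1, a target of BMP signalling (1.11 ± 0.16), and Mef2c (0.96 ± 0.15), and 4 were lower, with Nr2f2, the venous factor (-0.88 ± 0.19, and -2.66 without the barcodes holding markers of another class). The signalling list had 4 higher and 3 lower of 17, the MHC and interferon list 2 and 2 of 17, and the cell cycle list 0 and 0 of 6.

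**Figure D3:**
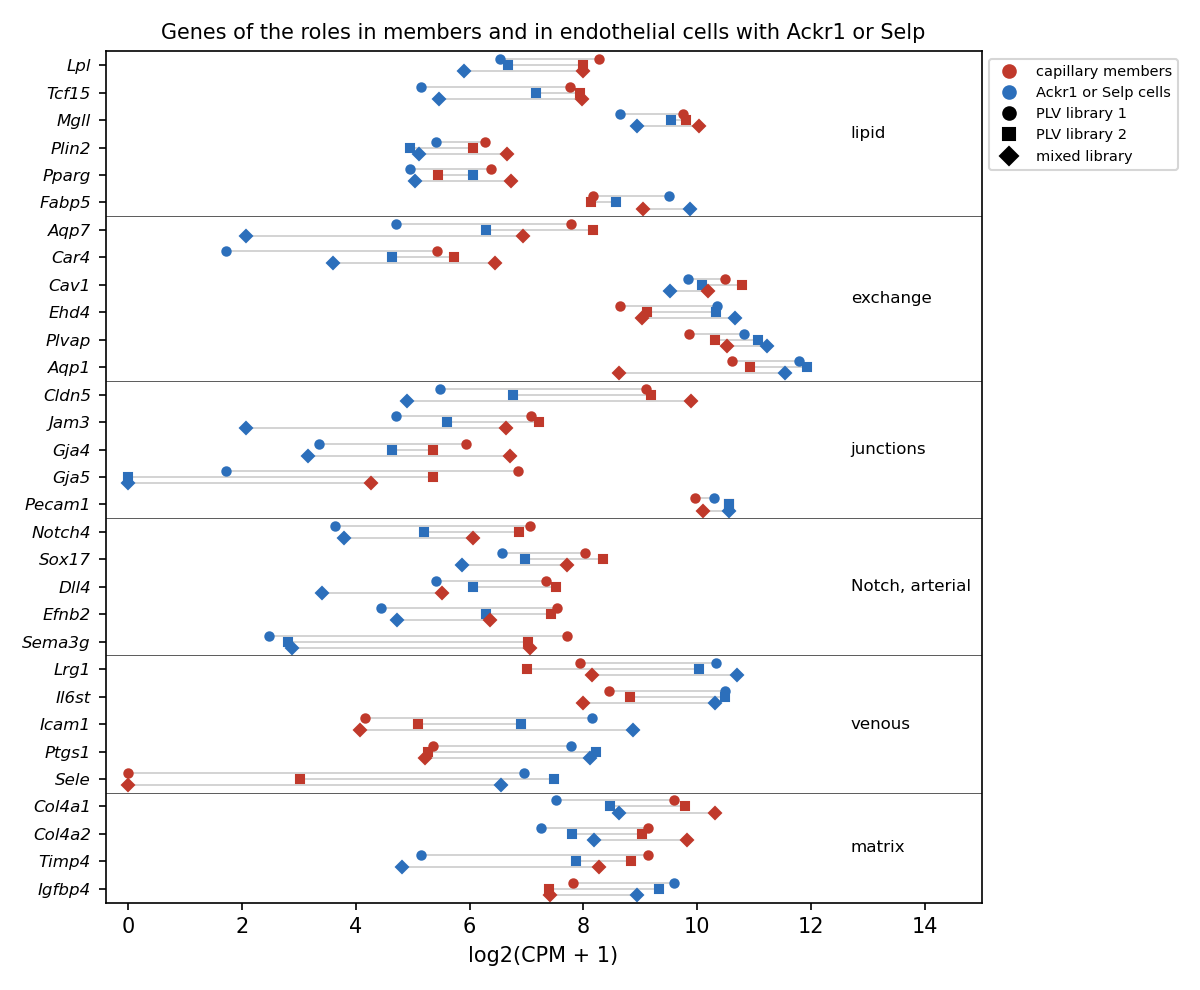
Levels on the log2(CPM + 1) scale (horizontal axis) of 31 genes in 6 roles (vertical axis), in the members (red) and in endothelial cells with Ackr1 or Selp (blue), with 1 marker shape for each library and a line joining the pair of values of a library. Members lie right of the other cells for Cldn5 and Sema3g and left of them for Icam1 and Aqp1 in every library.

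Among all genes, the 10 named as largest in the members' favour included Ssu2, with 36.9, 47.2 and 26.7 CPM in the members and 0 in the other cells (at least 14.4-fold higher), Kcnk3, an acid-sensitive potassium channel (5.42 ± 0.78), and Slc26a10 (5.38 ± 0.69). The 10 named in the other direction included Lbp, at 0 in the members and 119.3, 107.4 and 220.3 CPM in the other cells (at least 123.8-fold lower), Nt5e (-6.94 ± 0.34) and Fgl2, a fibrinogen-like protein (-6.22 ± 0.33). The 250 bases before the annotated start are given for 4 genes with large differences in both directions or between libraries, Cldn5 and Timp4 (higher in members), and Aqp1 and Nt5e (lower). They are RefSeq sequences of build GRCm38.p6, on chromosome 16 (chr16:18776597-18776846, plus strand), chromosome 6 (chr6:115252206-115252455, minus strand), chromosome 6 (chr6:55336049-55336298, plus strand) and chromosome 9 (chr9:88327359-88327608, plus strand). Each is written 5′ to 3′, with capitals at matches on either strand to AGGAAG (the core of ETS factor sites), AACAAT (SOX) or TGGGAA (RBPJ).
Cldn5: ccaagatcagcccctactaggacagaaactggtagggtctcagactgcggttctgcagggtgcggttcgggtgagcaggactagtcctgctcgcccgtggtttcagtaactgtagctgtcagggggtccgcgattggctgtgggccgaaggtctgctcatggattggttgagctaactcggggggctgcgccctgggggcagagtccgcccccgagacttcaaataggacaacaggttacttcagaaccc
Timp4: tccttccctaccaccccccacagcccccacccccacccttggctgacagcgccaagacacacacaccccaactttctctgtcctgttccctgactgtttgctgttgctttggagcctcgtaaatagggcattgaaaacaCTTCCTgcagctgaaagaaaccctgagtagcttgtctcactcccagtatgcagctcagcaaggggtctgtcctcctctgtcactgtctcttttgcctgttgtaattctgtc
Aqp1: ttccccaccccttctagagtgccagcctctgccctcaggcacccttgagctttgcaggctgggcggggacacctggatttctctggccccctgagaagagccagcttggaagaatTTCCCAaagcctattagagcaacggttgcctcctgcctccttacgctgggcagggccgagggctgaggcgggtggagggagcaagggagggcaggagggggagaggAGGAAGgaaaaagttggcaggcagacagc
Nt5e: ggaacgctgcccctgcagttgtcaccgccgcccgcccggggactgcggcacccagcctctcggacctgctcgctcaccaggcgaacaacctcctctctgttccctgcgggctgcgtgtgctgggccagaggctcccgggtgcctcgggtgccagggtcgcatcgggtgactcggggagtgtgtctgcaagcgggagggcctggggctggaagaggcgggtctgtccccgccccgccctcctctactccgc
Timp4 held 1 ETS match, 111 bases before its start, and Aqp1 held 1 ETS match at 29 bases and 1 RBPJ match at 135 bases, while Cldn5 and Nt5e held none. Such matches are common: among 32851 promoters of the same length 29.5% held the ETS letters, 9.42% the SOX letters and 21.6% the RBPJ letters. They are descriptions of the sequence. Of 176 genes named by rule in the comparisons of cells and libraries, 125 had a promoter entry.

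The members were next compared with lymphatic endothelial cells, the other endothelium of these vessels. These were barcodes with both Prox1 and Mmrn1 and with fewer than 2 of the 4 capillary genes (92, 45 and 26 barcodes). Of 7082 genes tested, 1836 were called (25.9%), 919 higher and 917 lower (12.9%) in the members. The count was 1124 with DESeq2, 1135 without PLV 1 and 635 of 1884 genes with thinned cells. Ly6c1, a surface protein of blood endothelium, was at 1903, 2040.0 and 2022 CPM in the members and had 0 UMIs in lymphatic cells, at least 617.4-fold higher. Ly6a, known as Sca-1, was at least 306.5-fold higher, the junction gene Jam2 at least 137.4-fold, the apelin receptor gene Aplnr at least 96.4-fold and Sox17 at least 79-fold. In the other direction Sema3d was at 0 in the members and at 805, 786.6 and 436 CPM in lymphatic cells, at least 544.8-fold lower, and Lbp was at least 629.8-fold lower. Flt4, the receptor of lymphangiogenic VEGF-C, was at 43.3, 70.8 and 23 CPM in the members and at 402.5, 350.6 and 268.8 CPM in lymphatic cells (-2.98 ± 0.25, adjusted p = 3.12e-06).

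Lipid genes were higher than in lymphatic cells in 12 of 15 and lower in 0, with a median of 1.89 beside 0.03 over all genes tested. The gates had the members hold at least 2 of the capillary genes, Cd36 and Gpihbp1 among them, and the lymphatic cells fewer than 2. Genes that accompany these had to differ, and the list was chosen with earlier results of these data known. Fabp4 was at 1456, 450.3 and 1678 CPM in lymphatic cells, against 17756, 14431 and 20155 CPM in the members (4.04 ± 0.25, adjusted p = 3.62e-07). Scarb1, the receptor of high-density lipoprotein, was at 839.9, 1292 and 858.2 CPM in the members and at 4.45, 17.1 and 14.5 CPM in lymphatic cells (6.55 ± 0.30). Aqp1 had 1565, 1953 and 395.2 CPM in the members and 22.2, 2.85 and 0 CPM in lymphatic cells (7.07 ± 0.39). Cldn5 was lower than in lymphatic cells, at 549.7, 580.2 and 950.3 CPM against 1921, 2055 and 3015 CPM (-1.76 ± 0.14, adjusted p = 2.22e-06), so the members lay between the cells with Ackr1 or Selp and the lymphatic cells in every library.

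Basement membrane genes were higher than in lymphatic cells in 12 of 20 and lower in 2, with Col4a2 (3.81 ± 0.22) and Sparc, a collagen-binding glycoprotein (3.27 ± 0.24), among them. Mural cells make some of these as well, and Rgs5 was at 2016, 582.5 and 996.4 CPM in the members, against 0, 2.85 and 152.6 CPM in lymphatic cells. With barcodes holding markers of another class left out, 13 of 20 matrix genes were higher and 3 lower. Immediate early and heat shock genes were lower in 16 of 20 and higher in 1, the small heat shock protein gene Hspb1 (2.33 ± 0.18), with a median of -1.43. Egr1 was at 1363, 1231 and 827.9 CPM in the members and at 4489, 4797 and 4047 CPM in lymphatic cells (-1.99 ± 0.16). Of MHC and interferon genes 10 of 15 were higher, among them B2m, the light chain of class I molecules (1.21 ± 0.17), and 1 was lower. Venous genes split, with 3 higher and 11 lower of 16, and so did Notch and arterial genes, with 9 higher and 5 lower of 18. Haemostasis genes were lower in 12 of 17, among them Plat, tissue plasminogen activator (-3.96 ± 0.42), and F8, coagulation factor VIII (-4.25 ± 0.59). Another 3 were higher: Entpd1 (5.37 ± 0.49), Ace (0.92 ± 0.21) and Gucy1b1 (1.52 ± 0.40). The part of the members' pericyte markers in the Gucy1b1 call was not tested here either. The exchange list had 10 higher and 2 lower of 15, junctions 6 and 2 of 17, signalling 8 and 4 of 16, transcription factors 10 and 7 of 20, and the cell cycle list 0 and 1 of 6, Stmn1.

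**Figure D4:**
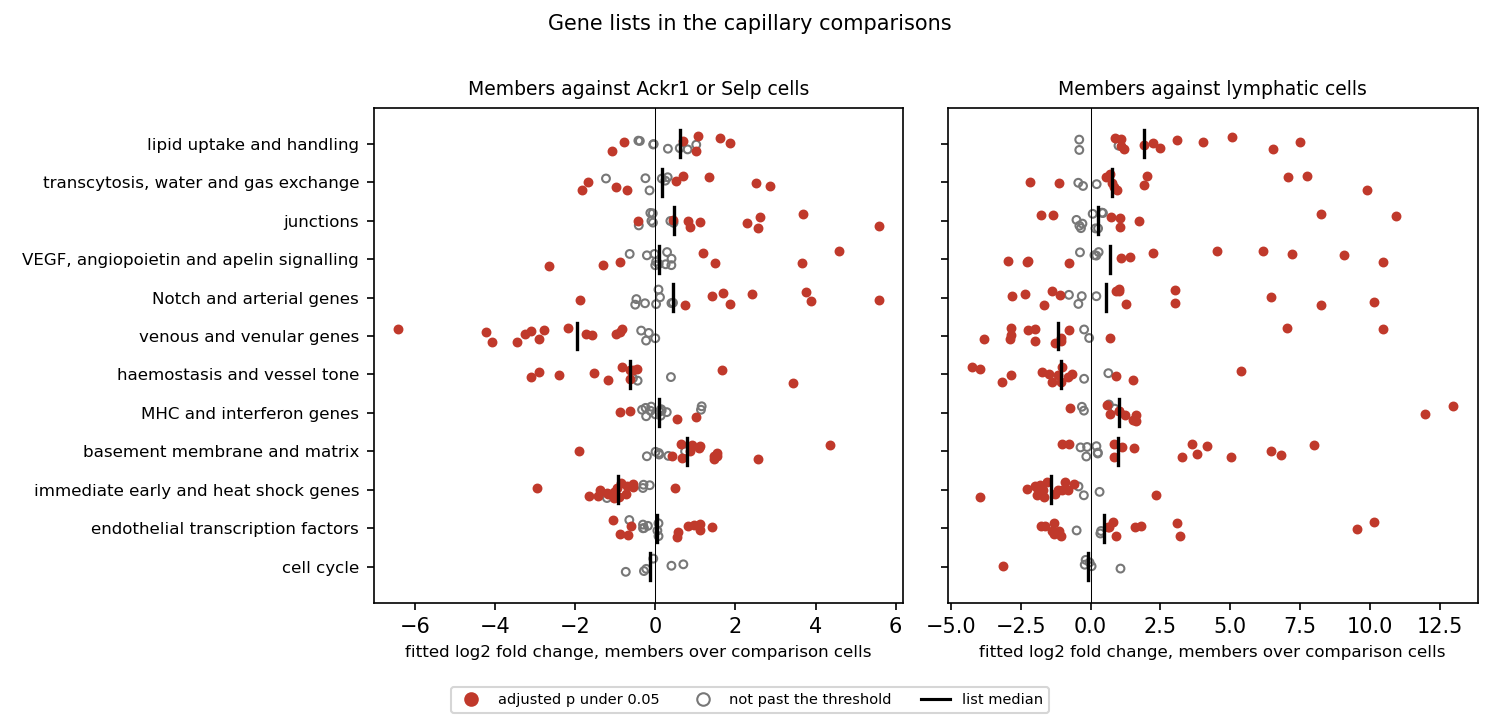
Fitted log2 fold changes (horizontal axis) of the tested genes of each list (vertical axis) in the members against cells with Ackr1 or Selp (left) and against lymphatic cells (right), with red points past the adjusted threshold and a line at the list median. Points beyond about 7 at the right belong to genes with few or 0 UMIs in lymphatic cells, whose fitted size depends on the prior count, and the venous list lies left of 0 in both panels by its median.

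The last comparison set the members of the PLV libraries against those of the mixed library. Vessel, digestion, run, sex-linked genes and mice differ together here and cannot be told apart, and the lone mixed sum is assumed to vary like the PLV sums. Of 8944 genes tested, 17 were called (0.190%), 13 higher (0.145%) and 4 lower (0.0447%) in the mixed members. The count moved widely with the choice of barcodes and genes: it was 205 without scrublet doublets, 218 with at least 3 of 4 capillary genes, 203 without the filter on low counts, 86 without barcodes holding markers of another class and 31 with at least 1000 UMIs. The genes lower were Xist, Cd24a, Nr1d1 and Aqp1. Aqp1, at 1565 and 1953 CPM in the PLV members and 395.2 CPM in the mixed members, was lower by a log2 fold change of -2.03 ± 0.29 (adjusted p = 0.0253). With members thinned to 1500 UMIs the test called 0 genes by edgeR (146 of 2458 at an unadjusted p under 0.05, and DESeq2 at full depth called 12), with an Aqp1 estimate of -2.35, and 56.2%, 69.0% and 27.9% of thinned members had an Aqp1 UMI, against 0.505%, 1.69% and 0.231% of non-endothelial cells.

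Whether Aqp1 differed in the same way in neighbouring endothelium was tested by an interaction term. The mixed side of this term is 1 library, which is assumed to vary like the PLV libraries. In cells with Ackr1 or Selp, Aqp1 was at 3544 and 3903 CPM in the PLV libraries and 2978 CPM in the mixed library, and the difference between the kinds of library was larger in the members by -1.83 (adjusted p = 1.81e-05), over 8326 genes of which 42 were called (0.504%), 16 higher (0.192%) and 26 lower (0.312%). Under DESeq2 the adjusted p of Aqp1 was 0.0416 and it was the 1 gene called, and without the library as block 4 genes were called. Vwf followed, at 162.5, 150.9 and 47.3 CPM in the members and 789, 692.2 and 1124 CPM in the other cells (-2.32, adjusted p = 1.01e-05), and Cldn5 went the other way (1.94, adjusted p = 0.0286), but DESeq2 called neither, and without the barcodes holding markers of another class the estimate for Cldn5 was 0.94 and not called. The make-up of the cells with Ackr1 or Selp also differed between libraries. The venular gate gave 30944 of their 436013 UMIs in PLV 1 and 5678 of 167584 in PLV 2. In the mixed library it gave 208964 of 626341. Vwf was at 2068, 528.4 and 2254 CPM in these venular cells. The part of this make-up in the calls of the interaction was not tested. Against the thin venular gate the interaction called 0 of 7478 genes by edgeR (61 at an unadjusted p under 0.05) and 0 by DESeq2 (114 at an unadjusted p under 0.05).

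Nr1d1, a repressor of the circadian clock, was at 224.7 and 212.3 CPM in the PLV members and at 40 CPM in the mixed members (-2.32 ± 0.35, adjusted p = 0.0305), a call that DESeq2 did not make (adjusted p = 0.0784) and that was lost with thinned members, at an estimate of -2.77. Cells with Ackr1 or Selp had 192.7, 173.1 and 47.9 CPM, so the order was the same there. Other clock genes were chosen after their values were seen and were not called. Per1, Ciart and Hlf are left out here, and Hlf is named again below, where an alternative called it. The rest had the following levels. Dbp was at 116.1, 70.8 and 18.2 CPM, Per3 at 59.1, 49.5 and 14.5 CPM and Nr1d2 at 130.8, 108.5 and 40 CPM, lower in the mixed members, while Arntl was at 4.22, 18.9 and 18.2 CPM. The hour of dissection was not analysed here. Cd24a, a surface glycoprotein, had 52, 24 and 1 UMIs, in 20, 6 and 1 members (-5.21 ± 0.71, adjusted p = 0.0188), and DESeq2 did not call it (adjusted p = 1.00).

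Most genes called higher in the mixed members rested on single barcodes. Ddx3y and Eif2s3y are Y-linked. H2-Ab1, H2-Aa, H2-Eb1 and Cd74, the genes of antigen presentation by class II, came with Lyz2, Cxcl2 and Retnla largely from 1 member of 17964 UMIs: all 100 UMIs of H2-Ab1 and all 160 UMIs of Cd74 were in it. Scrublet marked this member as a doublet. Without scrublet doublets the mixed members numbered 83, and 6 of the 15 genes named in this comparison had no value. The MHC and interferon list against venular cells then had 15 genes tested and 1 higher, in place of 17 and 3. The histone genes Hist1h2ap, Hist1h2ae and Hist1h1b came largely from 1 member of 42626 UMIs, with 95.8% of the Hist1h2ap UMIs, and Hist1h1e was called as well. Without those 2 barcodes, an alternative added after the data were seen, 20 genes were called, 8 higher and 12 lower, of which 7 were among the 17. Aqp1, Nr1d1, Cd24a and Xist were among those 7, and Vwf (adjusted p = 0.0429), Igfbp3 (0.0268), Sparc (0.023), Hlf (0.0271) and tdTomato (0.0245) were called besides.

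**Figure D5:**
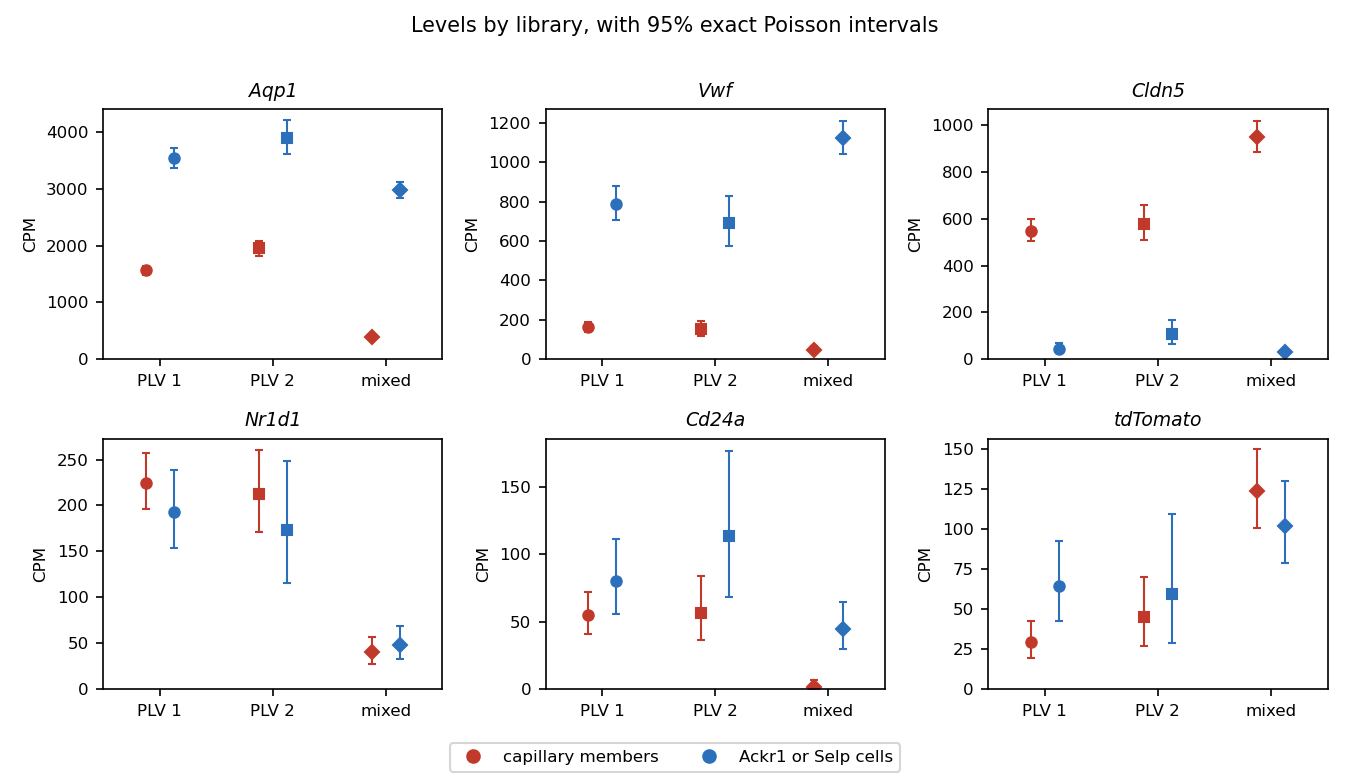
CPM (vertical axis, from 0) of 6 genes in the members (red) and in cells with Ackr1 or Selp (blue) in each library (horizontal axis), with 95% exact Poisson intervals. Aqp1 falls to 395.2 CPM in the mixed members while the other cells stay at 2978 CPM, and Nr1d1 is low in both kinds of cell of the mixed library.

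UMIs of the reporter were few. tdTomato had 28, 19 and 102 UMIs in the members, or 29.5 (95% Poisson interval 19.6 to 42.7), 44.8 (27.0 to 70.0) and 123.6 (100.8 to 150.1) CPM. Non-endothelial cells had 26.4, 55.4 and 74.1 CPM and lymphatic cells 33.4, 94.1 and 181.7 CPM, and near-empty droplets of the mixed library had 59.0 CPM. The mixed library had the highest level in each of these kinds of cell. In the fit with all members the difference between mixed and PLV members was not called for tdTomato (adjusted p = 0.0733). It was called with at least 1000 UMIs (0.0355), without the filter on low counts (1.53e-05), without scrublet doublets (1.08e-05) and with at least 3 of 4 capillary genes (1.42e-06), and not by DESeq2, with at most 10% mitochondrial UMIs (0.0531) or without barcodes holding markers of another class (0.189). The highest member held 10.7%, 15.8% and 7.84% of the tdTomato UMIs. After thinning, 5.47%, 4.76% and 10.3% of members had a tdTomato UMI, against 3.91%, 6.74% and 12.0% of non-endothelial cells, and the interval of the members' share held the share of these cells in every library. Wt1 had 0 UMIs in the members and in all kept cells of every library.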

How the data were processed

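RNA was measured in 3 libraries of mouse popliteal vessels with a 3′ droplet kit. The authors deposited raw UMI counts per gene and barcode. The file headers give Cell Ranger 6.1.2 for the PLV libraries and Cell Ranger 4 for the mixed library, and the submitters' processing notes name GRCm38, Cell Ranger and Seurat. The PLV matrices were deposited filtered and the mixed matrix with all barcodes.

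Kept barcodes had at least 500 UMIs, 300 genes, at most 15% mitochondrial and at most 20% haemoglobin UMIs. Scrublet (scanpy 1.11.5) marked 10, 3 and 3 of them (0.521%, 0.578% and 0.301%), of which 2 were members, and doublets were kept except in an alternative. The doublet call is weak, as so few were marked. UMIs were summed per library and gate and tested with the quasi-likelihood method of edgeR 4.0.16 after filterByExpr and TMM scaling (adjusted p under 0.05, library as block where each library holds both kinds of cell), and DESeq2 1.42.0 was an alternative. The 13 gate genes stayed in the library sizes only. CPM are sums scaled to a common total.

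On simulated counts 4-fold changes were recovered in 20.5% of 200 genes for the venular comparison (5894 genes), 69% for cells with Ackr1 or Selp (7242 genes), 72.5% for lymphatic cells (7012 genes) and 18% for PLV against mixed libraries (9024 genes). Of the genes called in these simulations 0%, 7.38%, 1.36% and 7.69% were false, so for cells with Ackr1 or Selp and for PLV against mixed libraries the false share was above the 5% threshold. These used a dispersion of 0.1, set by hand and not fitted to the data. Apart from the set changes, every library had the same mean per gene. The shares here and below hold for the simulated counts and do not measure the power or error of the real fits. For the interactions, simulated at a lower dispersion of 0.02, 32-fold changes were recovered in 83.5% with cells with Ackr1 or Selp (7966 genes) and in 11% with venular cells (7498 genes).

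The members and the 12 lists of 20 genes were chosen with earlier results of these data known. Named were the 10 largest changes in each direction with at least 10 UMIs and the same direction in every library, up to 6 called genes per list and direction, the gate genes, and the leading 15 genes by level and ratio. Alternatives left out each library, shallow or mitochondrial barcodes, doublets and barcodes with at least 2 UMIs in at least 2 markers of another class, asked for 3 capillary genes, thinned cells to 1500 UMIs (seeded, shallower cells left out), dropped the filter on low counts or dropped the block. The libraries were separate pools of mice, so p-values reach no further than these pools. The spread behind them was estimated largely across genes, not for each gene alone.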

Additional observations from a re-analysis of the deposited data

Results flagged for a closer look

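The difference between the PLV and the mixed libraries was not the same in the members as in endothelial cells with Ackr1 or Selp for 42 genes of 8326 by the interaction test in edgeR, 1 by DESeq2. Among the genes called between the libraries' members, 7 were also among these 42. The make-up of the cells with Ackr1 or Selp differed between libraries, as given above, and its part in these calls was not tested. Aqp1 (adjusted p of the interaction 1.81e-05) was lower in mixed members in every alternative run, and missed the threshold in the interaction only without the block (adjusted p = 0.109). Cd24a (0.00358) had 52, 24 and 1 UMIs in the members and 35, 19 and 28 in the other cells. Its interaction was lost with at most 10% mitochondrial UMIs (adjusted p = 0.0631), without barcodes holding markers of another class (0.404), without the block (0.126), with thinned cells and with DESeq2. H2-Ab1 (3.96e-11), H2-Aa (1.47e-08), H2-Eb1 (1.97e-07), Cd74 (2.14e-05) and Lyz2 (0.0119) had 100, 77, 96, 160 and 115 UMIs in the mixed members, nearly all in the member of 17964 UMIs named above.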

How the results depend on the processing

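The count of genes called against venular cells was 335, and 122 with DESeq2, 83 with cells thinned to 1500 UMIs and 15 to 387 with 1 library left out. Against cells with Ackr1 or Selp it was 1083, and 398 with DESeq2, 380 with thinned cells, 420 with no replicate block and 467 to 1258 with 1 library left out. Against lymphatic cells it was 1836, and 1124 with DESeq2, 635 with thinned cells and 1135 to 2006 with 1 library left out. Thinning left fewer genes to test (985, 1786 and 1884). No replicate block gave 297 and 1300 genes for the venular and lymphatic comparisons. The blocks are the libraries themselves, in which both kinds of cell come from the same mice.

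Between the PLV and mixed members 17 genes were called, 203 with no filter on low counts, 31 with at least 1000 UMIs, 205 without scrublet doublets, 86 without barcodes holding markers of another class, 218 with at least 3 of 4 capillary genes and 0 with thinned members. The cause of this range was not tested. The interaction with cells with Ackr1 or Selp called 42, and 1 with DESeq2, 18 with at most 10% mitochondrial UMIs, 21 without doublets, 24 without marker barcodes, 1 with thinned cells and 4 with no replicate block. The interaction with venular cells called 0, and 1 with at least 1000 UMIs, 1 with thinned cells and 3 with no replicate block. No library could be left out of these 3 comparisons, since no residual degrees of freedom remain. In each of them the mixed side is 1 library, which is assumed to vary like the PLV libraries.

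H2-Ab1 changed sign against venular cells with DESeq2 (-3.74), and Thy1 in the interaction without marker barcodes (-0.84) and with thinned cells (-1.44). Against cells with Ackr1 or Selp, 93 genes were named by the rule and 0 of those with a value changed sign. Many lost their call or had no value. With DESeq2 these were 18 and 1, without PLV 1 20 and 6, and with no replicate block 24 and 8. With thinned cells they were 8 and 31, and without barcodes holding markers of another class 5 and 11. The share of members in PLV 1 was 6.10% with at least 3 of 4 capillary genes. Without thinning, 68.5%, 74.0% and 61.9% of members had a Rgcc UMI, in place of 46.9%, 50% and 45.6%. The venular cells of PLV 2 were 3 barcodes with 5678 UMIs, so small differences could not be detected there.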
